A study of Rattus norvegicus with 12 samples.

Results

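The genes described here are 36 rat genes that mark macrophages and other myeloid cells. They comprise a lineage receptor and its transcription factor, recognition receptors, Fc receptors with their adaptors, the phagocyte oxidase, pan-leukocyte membrane proteins and leukocyte cytoskeletal proteins. They were picked by name with earlier results of these data known, leaving out MHC class II, complement, cathepsin and osteoclast genes. A gene was measured where a probe set of the array carried its symbol and no other, and the probe set with the highest mean over the 12 arrays stood for it. Of the 36 genes, 33 had such a probe set, among 14217 genes that had one on the array. Spi1, Msr1 and Slc11a1 had none and were not analysed here.

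RNA from the articular cartilage of rat knee joints was hybridized to 1-colour Affymetrix arrays, 3 per group. The groups were surgery that induces osteoarthritis (OA) and sham surgery, each sampled 8 weeks and 2 weeks after the operation. The labels give the surgery, the time and a replicate number, and refer to a published description for the operation. They do not give strain, sex or age, nor whether an array holds the RNA of 1 animal or of a pool, and p-values thus reflect only how far these samples scatter, which may be technical.

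Macrophages arise from embryonic precursors or from blood monocytes and take up microbes, dead cells and matrix debris. In the joint they are known above all from the synovial lining and the bone marrow, and osteoclasts derive from the same lineage. Healthy articular cartilage has no blood vessels and is built by chondrocytes, which make a matrix of collagen and aggrecan. The colony-stimulating factor 1 receptor keeps macrophages alive, and adaptors such as Tyrobp and Fcer1g pass signals from their surface receptors to kinases inside the cell.

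The samples carried the genes of the labelled tissue and also genes of other tissues. Group means of the log2 level were 9.9 to 11.8 for osteoclast genes and 11.1 to 12.5 for genes of osteoblasts and osteocytes. Of 17 genes of chondrocytes and cartilage matrix, 14 had a probe set and all of these passed the filter, with mean log2 levels between 13.1 and 13.7 in every array. Of these, Col9a1, Col9a2 and Col9a3, the chains of a fibril-associated cartilage collagen, were lower in OA at 8 weeks, and none was higher. The mean cartilage level at 8 weeks was 13.16, 13.09 and 13.30 in OA and 13.62, 13.34 and 13.35 in sham. Per array, 48.2% to 49.8% of probe sets exceeded log2 4. Replicate 1 of OA and replicate 1 of sham at 8 weeks had the lowest mean correlation with the other arrays of their groups (0.973 each). Genes of skeletal muscle had mean levels of 14.47, 11.28 and 9.83 in OA at 8 weeks and of 10.50, 6.14 and 7.72 in sham at 8 weeks, against 5.49 to 7.55 at 2 weeks. This list held 20 genes, of which 15 passed the filter, and Myh7 and Tnnc1 lay at or below log2 4 in every array. Results at 8 weeks are therefore also given without replicate 1 of sham, without both replicates 1 and with the muscle level as a covariate. Replicate 1 was the sham array with the highest muscle level, so leaving it out alone makes the groups less alike in that level.

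Probe sets above log2 4 in 3 or more of all 12 arrays were tested, and 24 of the 33 measured genes passed this filter. A gene that passes because the arrays of 1 group are high has to differ, and the genes were chosen with earlier results of these data known. Counts over the 24 genes, and the shares of all probe sets beside them, are therefore given as a description only. A difference was called at a limma adjusted p under 0.05 over all 15934 probe sets tested. Differences are on the log2 scale with standard errors from that fit, and each group has 3 arrays.

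At 8 weeks the test called 7 of the 24 myeloid genes lower in OA than in sham cartilage and none higher, where 1.95% of all probe sets tested were lower and 1.51% higher. The genes that fell were Cd68, Laptm5, Csf1r, Rac2, Clec4a, Gpnmb and Lcp1, from 5 of the 6 role groups. The median difference over the 24 genes was -2.07, and over the 33 measured genes it was -1.55, beside 0.01 and 0.02 for all probe sets tested and measured. The 24 differences were all below 0, as were 29 of the 33, against 48.9% of all probe sets tested. In 13 of the 24 genes every OA array lay below every sham array, which held for 12.8% of all probe sets tested. In whole tissue, fewer cells of a type and less RNA per cell cannot be told apart.

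**Figure D1:**
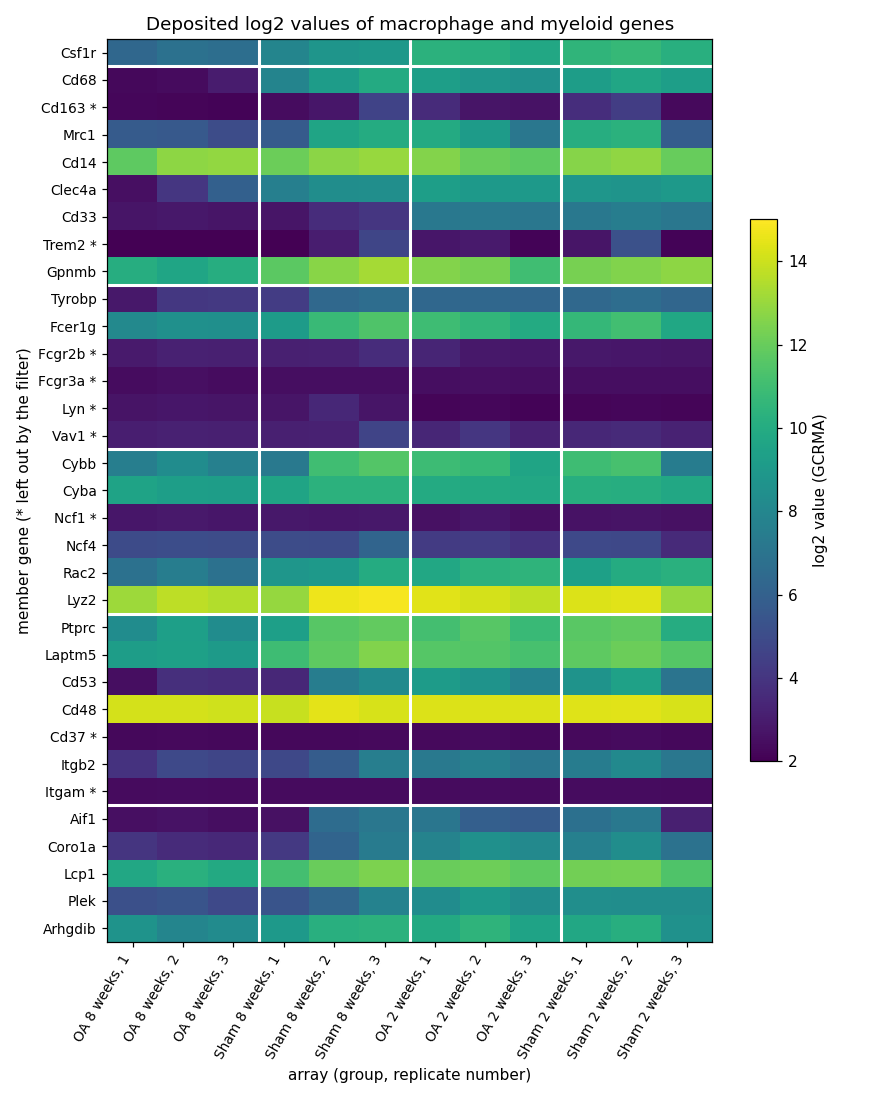
Heat map of log2 values of the 33 measured myeloid genes (down the page, by role) in the 12 arrays (across, by group), with colour for the log2 value. Colours run from dark (low) to light (high), white lines part the groups and roles, and a star marks the 9 genes left out by the filter. In most genes OA at 8 weeks is darker than sham at 8 weeks, whose replicate 1 is the darkest of its group.

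The lineage receptor Csf1r, the receptor of colony-stimulating factor 1, had log2 values of 6.33, 6.85 and 6.70 in OA and of 7.93, 8.77 and 8.96 in sham at 8 weeks. The OA arrays lay below all sham arrays and close to each other. Csf1r fell by 1.93 ± 0.27 (limma adjusted p = 0.00807), a 3.80-fold lower level in OA. The 2-week arrays of Csf1r read 10.35, 10.19 and 9.80 in OA, and those of sham 10.50, 10.71 and 10.19, all above every 8-week array. Spi1, which encodes the transcription factor PU.1 of the myeloid lineage, is the other gene of this role.

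Among the recognition receptors, Cd68, a glycoprotein of lysosomes and endosomes used to stain macrophages, differed the most. It had log2 values of 2.26, 2.39 and 2.98 in OA and of 7.86, 9.21 and 9.95 in sham at 8 weeks. At 2 weeks it had 9.27, 8.83 and 8.57 in OA and 9.24, 9.69 and 9.30 in sham. Only the 3 arrays of OA at 8 weeks lay below log2 4, and the other 9 lay far above it. Cd68 fell by 6.46 ± 0.45 (limma adjusted p = 0.000172), and since the OA values are near the floor of the scale no fold is given.

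Clec4a, a C-type lectin with an inhibitory signalling motif, had 2.51, 4.03 and 5.99 in OA and 7.61, 8.38 and 8.41 in sham at 8 weeks. The OA arrays were spread over more than 3 log2 units, all below the sham arrays. Its 2-week arrays read 9.29, 9.01 and 8.99 in OA and 8.82, 8.71 and 9.01 in sham. Clec4a fell by 3.96 ± 0.67 at 8 weeks (limma adjusted p = 0.0154). The rat has close paralogues of Clec4a, and whether their transcripts bind its probes was not tested. Gpnmb, a transmembrane glycoprotein of lysosomes in macrophages and osteoclasts, had 10.10, 9.62 and 10.12 in OA and 11.73, 12.68 and 13.25 in sham at 8 weeks. It fell by 2.61 ± 0.44 (6.09-fold lower, limma adjusted p = 0.0155), with no overlap between groups. At 2 weeks Gpnmb ran from 11.03 to 12.60 in OA and from 12.35 to 12.78 in sham.

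Rac2, a small GTPase of blood cells that takes part in activating the phagocyte oxidase, had 6.84, 7.49 and 6.87 in OA and 8.82, 8.97 and 10.02 in sham at 8 weeks. It fell by 2.20 ± 0.35 (4.60-fold lower, limma adjusted p = 0.0126). Laptm5, a lysosomal protein that promotes the breakdown of immune receptors, had 9.21, 9.37 and 9.09 in OA and 10.99, 11.77 and 12.53 in sham. In both genes the OA arrays lay below all sham arrays. Laptm5 fell by 2.54 ± 0.32 (5.80-fold lower, limma adjusted p = 0.00513), and its other probe set fell by 2.14 ± 0.44 (limma adjusted p = 0.0334). Lcp1, which bundles actin filaments in leukocytes, had 9.79, 10.24 and 9.90 in OA and 11.10, 12.04 and 12.45 in sham at 8 weeks. Lcp1 fell by 1.89 ± 0.34 (3.70-fold lower, limma adjusted p = 0.0185), again without overlap.

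The 8-week calls of Csf1r, Rac2 and Laptm5 held when any 1 of the 12 arrays was left out, and that of Cd68 also held under every other alternative tried. With the muscle level as a covariate the limma call remained for Cd68 alone (-5.80, adjusted p = 0.00505), and the adjusted p of the other 6 genes lay between 0.0894 and 0.238. Their fitted differences with the covariate, beside those without it, were -2.28 (-2.54) for Laptm5, -2.49 (-2.61) for Gpnmb, -1.92 (-2.20) for Rac2, -1.53 (-1.93) for Csf1r and -1.48 (-1.89) for Lcp1. Clec4a moved the most, to -2.45 from -3.96. Fitted on the 6 arrays of 8 weeks alone, Cd68 was again the single call (adjusted p = 0.0323).

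The regions upstream of these genes are shown because PU.1, the product of Spi1, binds purine-rich sites in promoters of myeloid genes. RefSeq promoter sequences of assembly GRCr8, which run from 250 bases before to 50 after the annotated start, were found for 22 of the 36 genes. Among the 7 genes that fell they were found for Cd68, Laptm5, Csf1r, Clec4a and Gpnmb. The sequences are given 5′ to 3′ on the strand of the gene, and capitals mark the PU box letters GAGGAA or, where the box lies on the other strand, TTCCTC.
Cd68: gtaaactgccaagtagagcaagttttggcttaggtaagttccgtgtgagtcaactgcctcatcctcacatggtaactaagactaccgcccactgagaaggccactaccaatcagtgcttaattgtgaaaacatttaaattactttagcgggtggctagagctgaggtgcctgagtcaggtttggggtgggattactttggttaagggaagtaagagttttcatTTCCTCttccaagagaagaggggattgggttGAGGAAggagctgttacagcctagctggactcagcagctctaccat
Laptm5: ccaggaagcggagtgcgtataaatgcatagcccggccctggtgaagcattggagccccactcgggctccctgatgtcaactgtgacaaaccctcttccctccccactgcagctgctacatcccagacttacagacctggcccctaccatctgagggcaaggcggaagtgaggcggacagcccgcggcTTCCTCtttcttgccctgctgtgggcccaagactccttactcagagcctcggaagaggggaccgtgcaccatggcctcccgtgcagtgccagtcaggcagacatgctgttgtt
Csf1r: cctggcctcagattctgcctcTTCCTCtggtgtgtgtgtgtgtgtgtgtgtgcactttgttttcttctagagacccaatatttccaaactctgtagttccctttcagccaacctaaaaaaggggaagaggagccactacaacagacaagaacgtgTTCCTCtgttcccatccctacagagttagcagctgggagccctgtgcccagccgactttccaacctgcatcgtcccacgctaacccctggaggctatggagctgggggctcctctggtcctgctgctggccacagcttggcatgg
Clec4a: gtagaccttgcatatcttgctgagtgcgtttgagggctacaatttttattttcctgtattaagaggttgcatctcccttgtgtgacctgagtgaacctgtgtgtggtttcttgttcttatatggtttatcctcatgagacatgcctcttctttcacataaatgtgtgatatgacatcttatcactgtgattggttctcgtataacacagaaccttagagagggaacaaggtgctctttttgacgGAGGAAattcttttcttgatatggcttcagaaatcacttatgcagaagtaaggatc
Gpnmb: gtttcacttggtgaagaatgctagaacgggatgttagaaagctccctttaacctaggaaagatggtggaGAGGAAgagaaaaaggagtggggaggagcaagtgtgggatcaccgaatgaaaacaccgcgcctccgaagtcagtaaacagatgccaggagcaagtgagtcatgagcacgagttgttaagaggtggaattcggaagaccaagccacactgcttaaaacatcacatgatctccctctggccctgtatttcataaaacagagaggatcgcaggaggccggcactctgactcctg

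The Cd68 window lies at chr10:54882392-54882691 on the minus strand. It holds the box on the opposite strand 27 bases upstream of the start and once more on the gene's strand 5 bases downstream. Laptm5 (chr5:148371630-148371929, plus strand) holds it once, 63 bases upstream. In Csf1r (chr18:56834129-56834428, plus strand) it occurs 229 and 95 bases upstream. Clec4a (chr4:158100365-158100664, plus strand) has it 6 bases upstream, and Gpnmb (chr4:79340878-79341177, plus strand) 181 bases upstream. The letters were found on either strand in 16 of the 22 promoters of myeloid genes (72.7%) and in 9239 of all 33469 promoters of the table (27.6%). A myeloid gene with several starts was counted by its first start only, while all starts were counted in the 33469, so the shares differ in unit. Only 5 of the 22 genes were called lower at 8 weeks. Genes with the letters that were not called include Cd14, Lyz2, Mrc1, Cybb and Ptprc. A match is a description of the letters and not a binding site. Spi1 was not measured, and a part of PU.1 in the 8-week differences was not tested.

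The remaining recognition receptors did not pass at 8 weeks. Mrc1, the mannose receptor of tissue macrophages, had log2 values of 5.71, 5.62 and 5.01 in OA and of 5.72, 9.61 and 9.98 in sham. Replicate 1 of sham lay just above the OA arrays and about 4 log2 units below the other sham arrays. The difference was -2.99 ± 1.38 (95% interval -6.07 to 0.10, limma adjusted p = 0.246). Cd33, a sialic acid-binding lectin of myeloid cells, had 2.74, 2.83 and 2.72 in OA and 2.71, 3.65 and 4.05 in sham at 8 weeks, so that almost all 8-week arrays lay below log2 4 (-0.71 ± 0.27, limma adjusted p = 0.173). Cd14, the co-receptor for lipopolysaccharide, had 11.79, 12.79 and 12.90 in OA and 12.07, 12.74 and 12.99 in sham at 8 weeks. The Cd14 groups overlapped fully (-0.10 ± 0.37, 95% interval -0.92 to 0.71), and its values stayed above log2 11 in all 12 arrays.

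The adaptors of the immunoreceptors missed the threshold. Tyrobp, which carries the signals of Trem2 and related receptors, had 2.86, 4.09 and 4.16 in OA and 4.32, 6.41 and 6.63 in sham at 8 weeks. Fcer1g, the signalling chain shared by Fc receptors, had 8.14, 8.53 and 8.49 in OA and 9.13, 10.83 and 11.41 in sham. In both genes all OA arrays lay below all sham arrays, with replicate 1 of sham nearest to them. The differences were -2.08 ± 0.55 for Tyrobp (limma adjusted p = 0.0698) and -2.07 ± 0.54 for Fcer1g (adjusted p = 0.0701). With the replicate number as a block within each time, the adjusted p was 0.00967 for Tyrobp, 0.0336 for Fcer1g and 0.0487 for Ptprc, all under the threshold. That block was chosen after seeing the data, and its pairing comes from these same arrays and not from the labels. At 2 weeks Tyrobp ran from 6.27 to 6.35 in OA and from 6.31 to 6.67 in sham, and Fcer1g from 9.93 to 10.98 in OA and from 9.76 to 11.06 in sham.

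Of the phagocyte oxidase, which makes superoxide, no subunit other than Rac2 passed. Cybb, the catalytic subunit, had 7.56, 8.31 and 7.69 in OA and 7.27, 11.01 and 11.51 in sham at 8 weeks. Replicate 1 of sham was the lowest of the 6 arrays, and the other sham arrays lay more than 2 log2 units above OA. Cybb differed by -2.08 ± 1.18 (95% interval -4.71 to 0.56, limma adjusted p = 0.344). Cyba, its membrane partner, had 9.56, 9.29 and 9.25 in OA and 9.60, 10.34 and 10.37 in sham (-0.74 ± 0.20, limma adjusted p = 0.0749), without overlap. Ncf4, a cytosolic subunit, had between 4.99 and 5.07 in OA and 5.01, 4.98 and 6.21 in sham, and only replicate 3 of sham stood apart (-0.38 ± 0.39, limma adjusted p = 0.621). Lyz2, the lysozyme of macrophages, had 13.10, 13.70 and 13.48 in OA and 12.93, 14.67 and 14.85 in sham (-0.72 ± 0.52, limma adjusted p = 0.465).

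Of the pan-leukocyte membrane proteins other than Laptm5, Ptprc, the leukocyte common antigen and a tyrosine phosphatase, had 8.31, 9.35 and 8.30 in OA and 9.34, 11.64 and 11.86 in sham at 8 weeks (-2.29 ± 0.68, limma adjusted p = 0.0994). Cd53, a tetraspanin, had 2.49, 3.77 and 3.64 in OA and 3.42, 7.51 and 8.24 in sham (-3.09 ± 1.12, limma adjusted p = 0.153). Itgb2, the beta chain of the leukocyte integrins, had 3.88, 4.86 and 4.72 in OA and 4.80, 5.77 and 7.55 in sham (-1.55 ± 0.59, limma adjusted p = 0.170). In all 3 genes replicate 1 of sham lay within the range of the OA arrays. Cd48, a ligand of lymphocyte receptors, differed by -0.09 ± 0.13 (95% interval -0.37 to 0.19), with values between 13.92 and 14.47 in all 12 arrays.

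Among the cytoskeletal genes, Coro1a, an actin-binding coronin of leukocytes, had 4.01, 3.58 and 3.51 in OA and 4.18, 6.21 and 7.39 in sham at 8 weeks (-2.23 ± 0.68, limma adjusted p = 0.103). Arhgdib had 8.65, 7.92 and 8.25 in OA and 8.98, 10.22 and 10.33 in sham (-1.57 ± 0.47, limma adjusted p = 0.0975). Neither gene's groups overlapped. Plek, a kinase C substrate of platelets and leukocytes, had 5.19, 5.40 and 4.88 in OA and 5.37, 6.27 and 7.77 in sham (-1.31 ± 0.48, limma adjusted p = 0.157). Aif1, the macrophage calcium-binding protein also called Iba1, had 2.55, 2.62 and 2.46 in OA and 2.58, 6.61 and 7.16 in sham (-2.91 ± 1.26, limma adjusted p = 0.218). Replicate 1 of sham lay among the OA arrays for Plek and Aif1, and the other sham arrays lay above all OA arrays.

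**Figure D2:**
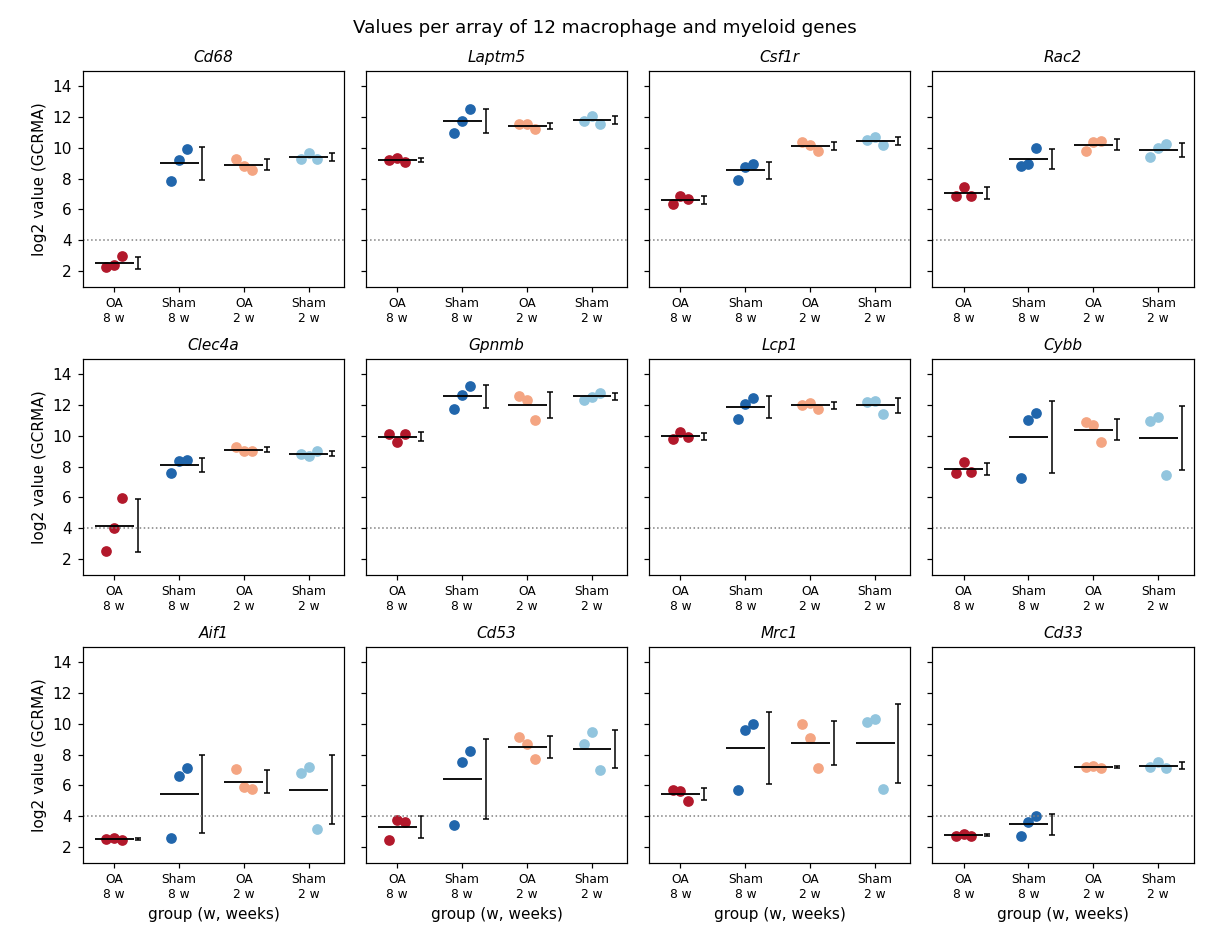
Log2 values of 12 myeloid genes in each array by group, with 1 point per array, a bar for the group mean, an error bar of 1 SD (n = 3 arrays) and a dotted line at log2 4, the level of the filter. For Cd68 the 3 arrays of OA at 8 weeks lie below the dotted line and all other arrays far above it, while for Mrc1, Cybb and Aif1 1 array of sham at 8 weeks lies with the OA arrays.

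Replicate 1 of sham at 8 weeks had the lowest value of the 3 sham arrays in 23 of the 24 genes tested, all but Ncf4, and in 29.8% of all probe sets. It lay nearer to the OA mean than to the mean of the other sham arrays in 18 genes, and in 50.5% of all probe sets. The exceptions were Csf1r, Cd68, Clec4a, Gpnmb, Rac2 and Laptm5, which are 6 of the 7 genes called. The calls rest on the same arrays and favour genes whose sham arrays lie together, so this match is a description only. In 22 genes the other 2 sham arrays lay above all OA arrays, and the exceptions were Cd14 and Ncf4. The same held for 20.3% of all probe sets. The median range between the 3 arrays of a group was 0.556 in OA and 1.73 in sham at 8 weeks, and 0.673 in OA and 0.88 in sham at 2 weeks. The fit takes 1 spread per gene for all 4 groups. Without replicate 1 of sham the fit called 18 of the 24 genes lower, the 7 above and 11 more, and 3.6% of all probe sets. Those were Tyrobp, Fcer1g, Cyba, Ptprc, Cd53, Itgb2, Aif1, Coro1a, Plek, Arhgdib and Cd33. Replicate 1 was the lowest sham array in all of these genes, so its removal widens their differences. The larger count is therefore no check of the calls. Without replicate 1 of OA and of sham it called 15 lower, and 2.41% of all probe sets. Without replicate 2 or without replicate 3 of sham at 8 weeks it called 4 lower (0.477% and 0.395% of all probe sets), and Clec4a, Gpnmb and Lcp1 were lost. Clec4a and Gpnmb were also lost without replicate 2 of OA, and Lcp1 without replicate 1 of OA.

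The muscle level was higher in replicate 1 than in the other arrays of its group in both 8-week groups, and the mean level of the 24 myeloid genes was 6.78, 7.16 and 7.09 in OA and 7.81, 9.36 and 9.92 in sham. No gene of the muscle list passed the 8-week test, and 14 of its 15 genes tested were higher in OA, with a median difference of 4.12. The part of muscle RNA in the 8-week differences of the myeloid genes was not tested beyond the covariate. Osteoclast genes, of which 7 of 13 passed the filter, had mean levels of 9.26, 10.18 and 10.31 in OA and of 11.51, 11.62 and 11.85 in sham at 8 weeks. Of these 7, 5 fell (Ctsk, Mmp9, Itgb3, Acp5 and Tcirg1), while Calcr and Tnfrsf11a never exceeded log2 4. The 3 sham arrays lay close together for the osteoclast genes and not for the myeloid genes. Genes of osteoblasts and osteocytes had mean levels of 10.79 to 11.56 in OA and 12.10 to 12.44 in sham at 8 weeks, with 3 of 9 genes tested lower, and endothelial genes had 4.39 to 5.21 in OA and 5.23 to 6.60 in sham, with 0 of 7 called. The part of these cells in the myeloid differences was not tested.

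**Figure D3:**
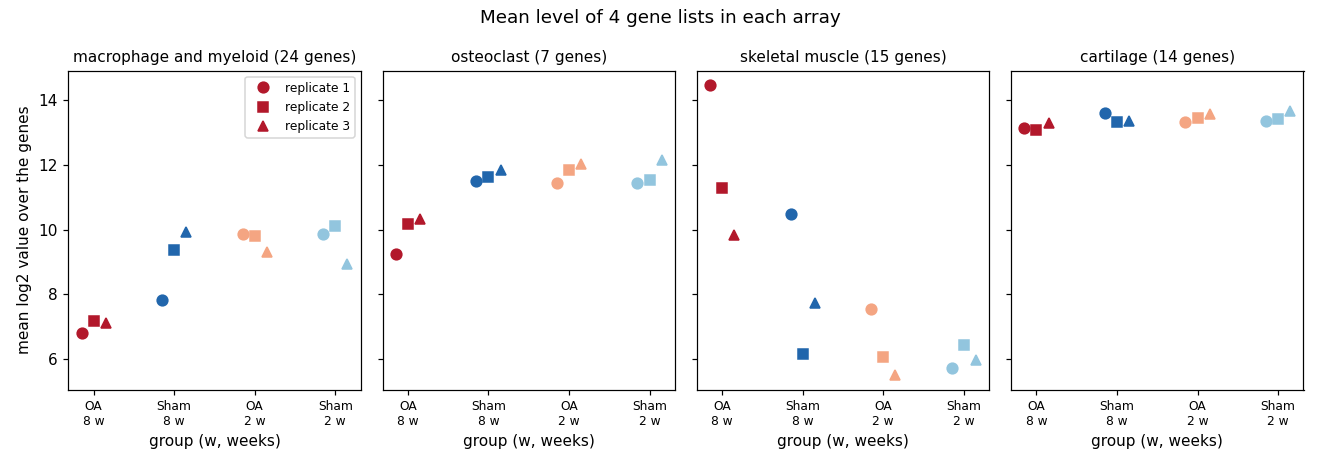
Mean log2 level of 4 gene lists (macrophage and myeloid, osteoclast, skeletal muscle, cartilage) in each array, with 1 point per array, a shape per replicate number and the groups along the axis. At 8 weeks the myeloid, osteoclast and cartilage levels of OA lie below those of sham, and the muscle level is highest in replicate 1 of both groups. The cartilage level lies between 13.1 and 13.7 in all arrays.

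Of the 9 measured genes that the filter left out, Cd163, Trem2 and Vav1 exceeded log2 4 in 2 arrays each. Cd163, the scavenger receptor for haemoglobin, was between 2.11 and 2.23 in OA and had 2.43, 2.77 and 4.61 in sham at 8 weeks. Trem2, a lipid-sensing receptor, was between 1.84 and 1.89 in OA and had 1.84, 3.06 and 4.73 in sham. Vav1, a signalling protein of blood cells, reached 4.65 in replicate 3 of sham at 8 weeks. That array was the highest of all 12 for Cd163 too. Fcgr2b and Fcgr3a (low-affinity Fc receptors), Lyn (a Src family kinase), Ncf1 (a cytosolic oxidase subunit), Cd37 (a tetraspanin) and Itgam (an integrin alpha chain) stayed at or below 3.65 in every array. Trem2, Lyn, Cybb, Cyba, Ptprc and Aif1 had a further probe set each, and all of these were left out by the filter, with values up to 3.90.

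At 2 weeks no myeloid gene was called between OA and sham. The limma test called 0 of the 24 genes, where it called 0% of all probe sets tested, and 0 of the 24 had an unadjusted p under 0.05, against 1.69% of all probe sets. The median difference over the 24 genes was -0.01, and 14 of them were below 0, against 55% of all probe sets. Laptm5 was the only gene whose OA arrays all lay below the sham arrays (11.55, 11.54 and 11.22 in OA, against 11.75, 12.06 and 11.55 in sham), a separation that 3.46% of all probe sets showed. Here the highest OA and the lowest sham value are equal at 2 decimals. The intervals of the difference were wide where the 2-week arrays varied. For Mrc1 the interval was -3.07 to 3.10, with values of 9.96, 9.11 and 7.15 in OA and of 10.10, 10.28 and 5.80 in sham. For Cd68 it was -1.52 to 0.48 and for Csf1r -0.96 to 0.25. Replicate 3 of sham had the lowest value of the 6 arrays of 2 weeks in 13 of the 24 genes, and in 14.4% of all probe sets.

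Among the 2-week arrays of these 13 genes, Cybb had 10.89, 10.69 and 9.61 in OA and 10.97, 11.20 and 7.48 in sham. Aif1 had 7.08, 5.93 and 5.74 in OA and 6.79, 7.23 and 3.16 in sham, and Cd53 had 9.12, 8.68 and 7.75 in OA and 8.70, 9.44 and 7.02 in sham. In each of these genes the other sham arrays overlapped the OA arrays or lay above them. Rac2 had 9.80, 10.36 and 10.46 in OA and 9.39, 9.98 and 10.27 in sham at 2 weeks. Lcp1 had 12.02, 12.13 and 11.75 in OA and 12.23, 12.29 and 11.41 in sham. Ptprc ran from 10.82 to 11.64 in OA and from 10.06 to 11.85 in sham, Itgb2 from 7.08 to 7.67 in OA and from 7.14 to 8.15 in sham, and Coro1a from 7.83 to 8.51 in OA and from 6.88 to 8.36 in sham. The groups overlapped in all of them.

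**Figure D4:**
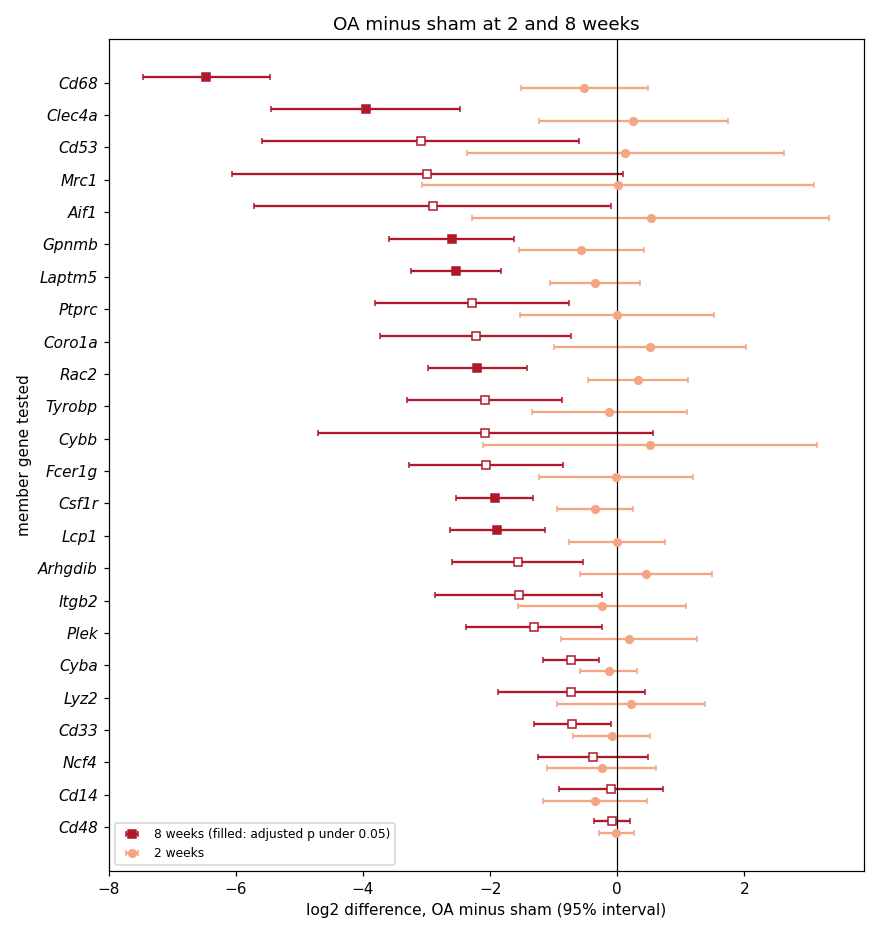
Difference of OA minus sham on the log2 scale for the 24 myeloid genes tested, at 8 weeks (squares, filled where the adjusted p is under 0.05) and at 2 weeks (circles), with 95% intervals from the limma fit. At 8 weeks all 24 points lie below 0 and 7 are filled, while the 2-week points lie between -0.57 and 0.52 and none passed the test.

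The change of the OA difference between 2 and 8 weeks was tested as an interaction, which uses all 12 arrays and so shares them with each comparison above. It called 1 of the 24 genes, Cd68, where 0.138% of all probe sets were called in either direction, 0.0753% as lower and 0.0628% as higher. Cd68 differed between OA and sham by -6.46 at 8 weeks and by -0.52 at 2 weeks, a change of -5.94 ± 0.63 (limma adjusted p = 0.00787). The Cd68 call held without any 1 array. The next genes did not pass. They were Rac2 (-2.53 ± 0.49, adjusted p = 0.106), Laptm5 (-2.18 ± 0.45, 0.116), Clec4a (-4.21 ± 0.94, 0.144), Csf1r (-1.57 ± 0.38, 0.177), Lcp1 (-1.88 ± 0.48, 0.197) and Gpnmb (-2.04 ± 0.62, 0.286). For these 6 genes a difference between the times is therefore not shown, although each was called at 8 weeks alone. Without replicate 1 of sham at 8 weeks the interaction called 6 genes (0.502% of all probe sets), and without replicate 3 of OA at 8 weeks it called 2 (0.251%).

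The times were compared within OA and within sham, and these comparisons share the OA arrays, or the sham arrays, with those above. The limma test called 17 of the 24 genes lower and none higher in OA at 8 weeks, where 34.1% of all probe sets were called, 12.4% lower and 21.7% higher. The median difference over the 24 genes was -2.58, and over the 33 measured genes -2.04. In 22 genes every 8-week array lay below every 2-week array, which held for 17.5% of all probe sets, and in Ncf4 every 8-week array lay above. In 19 genes the OA arrays of 8 weeks lay below all 6 arrays of 2 weeks, as in 14.5% of all probe sets. Cd33 fell by 4.45 ± 0.27 (7.51e-07), Coro1a by 4.45 ± 0.68 (0.000591), Plek by 3.41 ± 0.48 (0.000352), Cd53 by 5.22 ± 1.12 (0.0049), Tyrobp by 2.62 ± 0.55 (0.00423), Itgb2 by 2.85 ± 0.59 (0.00411) and Aif1 by 3.71 ± 1.26 (0.0449), with limma adjusted p in parentheses. The Aif1 call held in 7 of 11 alternatives and when 4 of the 12 arrays were left out in turn, and was lost with the other 8 (adjusted p up to 0.124). Fcer1g, Ptprc and Arhgdib also fell (-2.09, -2.54 and -1.69), as did the 7 genes that were lower in OA than in sham at 8 weeks. The call of Fcer1g was lost without replicate 1 of OA at 2 weeks (adjusted p = 0.051). That of Ptprc was lost without replicate 2 of OA at 2 weeks or replicates 1 or 3 of OA at 8 weeks, and that of Arhgdib without replicate 2 of OA at either time. Cd14, Cd48, Lyz2, Cyba, Mrc1, Cybb and Ncf4 did not pass.

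Markers of other cells moved over the same interval in OA. Of the skeletal muscle genes 9 of 15 tested were higher at 8 weeks and none lower, with a median of 7.34, and their mean level was 9.83 to 14.47 at 8 weeks and 5.49 to 7.55 at 2 weeks. Of the osteoclast genes 6 of 7 tested fell, of the osteoblast and osteocyte genes 6 of 9, of the endothelial genes 5 of 7 and of the monocyte and granulocyte genes 3 of 5, and none rose. At 2 weeks all 5 tested monocyte and granulocyte genes were higher in OA than in sham, with a median of 2.35 and 0 called. The part of these other cells in the change of the myeloid genes was not tested.

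In sham cartilage 3 of the 24 genes passed, all lower at 8 weeks, where 18.7% of all probe sets were called, 6.24% lower and 12.5% higher. Cd33 had 2.71, 3.65 and 4.05 at 8 weeks and 7.21, 7.53 and 7.14 at 2 weeks, with no overlap, a fall of 3.82 ± 0.27 (limma adjusted p = 2.6e-06). Csf1r fell by 1.91 ± 0.27 (adjusted p = 0.000453), and Plek by 1.91 ± 0.48 (adjusted p = 0.0177). The Plek call ended without replicate 1 or without replicate 2 of sham at 2 weeks, without replicate 2 of sham at 8 weeks, without both replicates 1 of 8 weeks and on the sham arrays alone (adjusted p up to 0.0882). Without replicate 3 of sham at 8 weeks 5 genes passed, and 16.2% of all probe sets. The median over the 24 genes was -0.27. In sham 2 of 15 muscle genes tested were higher at 8 weeks (median 1.90), 2 of 7 endothelial genes were lower, and 0 genes of osteoclasts, of osteoblasts and osteocytes or of monocytes and granulocytes were called. Gpnmb (0.00), Laptm5 (-0.03) and Cd68 (-0.40 ± 0.45, adjusted p = 0.679) did not pass in sham. Of these 3 genes only Cd68 passed the interaction given above, so for Gpnmb and Laptm5 a difference in the change over time between OA and sham is not shown. The labels do not say whether the arrays of 2 and 8 weeks were processed together, so time and a processing batch cannot be told apart.

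Genes that act with the myeloid genes were taken from lists, of which the first held growth factors and transcription factors of the lineage. Of its 6 genes tested at 8 weeks none was called, and the median was 0.03. Csf1, the ligand of Csf1r, was between 8.03 and 8.15 in OA and between 7.96 and 8.01 in sham (0.08 ± 0.16, limma adjusted p = 0.820). Klf4, a factor of monocyte differentiation and of many other cells, was higher in each OA array than in each sham array but did not pass (0.57 ± 0.14, limma adjusted p = 0.0617). Il34, the other ligand of Csf1r, and Irf8, Irf5, Cebpb, Cebpe, Csf2ra and Csf2rb never exceeded log2 4.

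Of 20 genes that signal downstream of the adaptors, 10 were tested at 8 weeks, and 2 fell and none rose in OA, with a median of -0.75. Inpp5d, a phosphatase that limits signalling from immunoreceptors, had 5.17, 5.67 and 5.31 in OA and 6.42, 6.02 and 6.19 in sham (-0.83 ± 0.15, limma adjusted p = 0.0219). Arhgap9, a GTPase-activating protein of blood cells, had 9.27, 9.11 and 9.24 in OA and 9.86, 9.71 and 10.28 in sham (-0.75 ± 0.15, limma adjusted p = 0.0268). The OA arrays lay below all sham arrays for both. Between 2 and 8 weeks 9 of the 10 genes were called lower in OA and 4 of the 10 in sham.

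Of 20 receptors of resident and scavenging macrophages, 13 were tested at 8 weeks and 1 fell, with a median of -1.41. That gene was Mertk, a receptor kinase for the uptake of dead cells, with 5.23, 3.81 and 4.46 in OA and 5.86, 5.96 and 6.73 in sham (-1.69 ± 0.36, limma adjusted p = 0.0381). Its sham arrays rose at 8 weeks against 2 weeks by 1.82 ± 0.36 (adjusted p = 0.00478), and its OA arrays differed by 0.49 and did not pass. The interaction of surgery and time did not pass for Mertk (-1.33 ± 0.52, limma adjusted p = 0.405), so a difference between these changes is not shown. Stab1, a scavenger receptor, had 2.46, 2.69 and 2.24 in OA and 3.02, 6.99 and 7.36 in sham at 8 weeks (-3.33 ± 1.27, limma adjusted p = 0.172). Of pattern recognition and inflammasome genes 0 of 8 tested were called (median -1.35), and of other oxidase and phagosome genes 0 of 7 (median -0.06).

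Markers of other blood cells gave no call at 8 weeks, but few were tested, and 3.46% of all probe sets were called in either direction. None of the 5 tested genes of monocytes and granulocytes passed (median -0.38), and their mean level was 5.45 to 7.91 in OA and 6.24 to 8.35 in sham. Of the T and NK cell genes, 10 of 13 measured never exceeded log2 4, Cd3d, Cd4 and Cd8a among them, and 0 of 2 tested were called. Of the B cell genes 0 of 3 tested were called, but all 3 differences were below 0. Their median was -1.78, beside -2.07 for the 24 myeloid genes. Ms4a1, which gave this median, exceeded log2 4 in 3 arrays only, all of sham, so the filter favoured a lower OA value. At 8 weeks Cd22 averaged 5.66 in OA and 5.71 in sham, and Jchain 3.81 and 5.66. The mean level of these B cell genes was 3.81, 3.84 and 3.49 in OA and 3.82, 5.22 and 5.77 in sham. Of the mast cell genes 0 of 2 tested were called, and Kit and Cpa3 stayed at or below log2 4 throughout. So did Cd79b of the B cell genes.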

How the data were processed

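The deposited log2 values of 31099 probe sets on 12 arrays were used as the authors made them, with GCRMA per the submitters' processing notes, whose version is not given in the sources used here. No scanner values, detection calls or scan batches were used. Gene symbols came from the platform annotation, in which 20832 probe sets had 1 symbol, 436 several and 9831 none. The 57 control probe sets were left out, and 15934 others passed the filter.

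A mean per group was fitted with limma 3.58.1 in R 4.3.3 (8 residual and 1.94 prior degrees of freedom), with Benjamini-Hochberg adjustment over the probe sets tested. Promoter searches and tables used pandas 2.3.3 and numpy 2.4.6 under Python 3.11.15, and figures matplotlib 3.10.9. The fit was tested on simulated data. The number of arrays limits the precision. The myeloid genes and the 14 other lists (201 genes) were chosen with earlier results of these data known. Any myeloid gene could be named. From each other list the 4 genes lowest in unadjusted p at 8 weeks could be named. Tcirg1 and the genes given only as never above log2 4 were named after their values were seen.

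Arrays of OA and sham with the same replicate number deviated together from their group means. Their correlations were 0.239, 0.237 and 0.119 at 8 weeks and 0.333, 0.36 and 0.527 at 2 weeks. With unlike numbers they were -0.266 to 0.142 at 8 weeks and -0.381 to 0.0692 at 2 weeks. The 0.142, of replicate 3 of OA with replicate 2 of sham, exceeded the 0.119 of both replicates 3. The main fit is not paired, and the numbers were taken to pair OA and sham within a time only in the alternatives with a block. This pairing comes from the data and not from the labels. Across times it did not hold (-0.497 to 0.237). Unlike numbers across times in sham reached 0.64, 0.614 and 0.526. Correlations as large as those within a time thus also arose between arrays not taken as pairs. Alternatives changed the filter, normalization, variance model, array weights, pairing, arrays fitted, muscle covariate, probe sets averaged and arrays left out. The block within each time and the removal of both replicates 1 were chosen after seeing the data.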

Additional observations from a re-analysis of the deposited data

Results flagged for a closer look

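The difference of Cd68 between OA and sham changed between 2 and 8 weeks by -5.94 on the log2 scale, and it is listed here because the test of that change passed (limma adjusted p = 0.00787). All 3 OA arrays lay below log2 4 at 8 weeks and all 3 above 8 at 2 weeks, and the sham arrays lay above 7 at both times. Groups of 3 arrays were not tested for single arrays that stand apart.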

How the results depend on the processing

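Of 24 myeloid genes tested, 7 were called between OA and sham at 8 weeks, and that count was 17 with array weights, 1 with only the arrays of the comparison, 1 with the skeletal muscle level as a covariate, where of the 7 log2 differences only that of Clec4a moved by over 1.5 times, and 15 with both replicates 1 at 8 weeks left out. Leaving out 1 array gave 4 to 18 calls at 8 weeks, 0 to 0 at 2 weeks, 1 to 6 for the interaction, 14 to 19 between times in OA and 2 to 5 between times in sham. The interaction, with 1 call, gave 3 with array weights and 4 without both replicates 1. Between times in sham, with 3 calls, no filter gave 5 over all 33 measured genes, with Lyn and Ncf1 added as higher (0.78 and 0.17). The replicate block gave counts of 8 at 8 weeks, 0 at 2 weeks, 1 for the interaction, 16 in OA and 3 in sham, and with the block within each time 10 genes were called at 8 weeks. That block changed no call at 2 weeks or in the interaction. The fit on the arrays of the comparison alone has 6 arrays and fewer degrees of freedom. The array weights were 0.53, 1.35 and 2.35 for replicates 1, 2 and 3 of sham at 8 weeks. Shares of all probe sets called are given above for some of these settings only. A change in a count is therefore not a result about the myeloid genes. The cause of the changes in these counts was not tested. All calls were lower but for those of Lyn and Ncf1 with no filter, in OA and in sham, and 1 higher call between times in OA with only the arrays of the comparison and 1 without replicate 3 of sham at 2 weeks. Values near the floor of the scale limit the size given for Cd68, Cd33, Tyrobp, Cd53, Aif1 and Coro1a, whose OA means at 8 weeks lay under log2 4. Signal over background was not given by detection calls here.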
